A study of Mus musculus with 6 samples.

Results

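The mitochondrial carrier family Slc25 was followed in the inguinal white fat, a subcutaneous depot, of cold-exposed mice with and without Foxp4 in adipocytes. Members were all rows of the deposited expression table whose symbol begins with Slc25a, apart from Slc25a1, Slc25a11, Slc25a12, Slc25a13, Slc25a20 and Slc25a44, which left 41 genes of 21900 distinct symbols. The rule reads symbols and no measured value, although the family was taken up with earlier results of these data known. All 6 samples came from C57BL/6 mice aged 2 months that were housed at 22 °C on chow and then kept at 4 °C for 7 days. The 3 controls were Foxp4fl/fl, carrying the floxed gene. The 3 knockouts, labelled Foxp4AdipoQΔ/Δ, carried a deletion of Foxp4, a forkhead transcription factor. The genotype name points to a Cre recombinase driven by the promoter of adiponectin (Adipoq), a gene of mature fat cells. The labels name no Cre in the controls, so the effect of the driver and that of the deletion cannot be told apart. Whether a sample was 1 mouse or a pool is not stated by the labels, so the p-values reflect no more than the variation among these samples. RNA was taken from whole tissue, in which fewer cells of a type and less RNA per cell cannot be told apart.

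Carriers of this family sit, with few exceptions, in the inner mitochondrial membrane, which charged metabolites do not cross freely. Each exchanges or imports a narrow set of substrates, such as ADP and ATP, phosphate, organic acids, amino acids, nucleotides and cofactors, between the cytosol and the matrix. The uncoupling protein Ucp1 of thermogenic fat is a relative that conducts protons, and thermogenic adipocytes are rich in mitochondria. A member of the family, Slc25a17, is known as a carrier of the peroxisomal membrane, and another, Slc25a46, as a protein of the outer mitochondrial membrane.

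Libraries held between 13180622 and 15998366 reads on annotated genes, recovered from the deposited FPKM, a read count scaled by exon length and library size. Foxp4 stood at 4.80 ± 0.89 FPKM for controls against 1.76 ± 0.15 for knockouts (SD, n = 3), with no overlap. Of the defining markers of mature adipocytes, Adipoq was at 1212 ± 69.0 FPKM for controls against 872 ± 56.9 for knockouts (SD, n = 3), and every knockout lay below every control (log2 fold change -0.48, limma adjusted p = 0.085). Cidec was also lower without overlap, and all 5 mature adipocyte markers had negative log2 fold changes, from -0.48 for Adipoq to -0.03 for Fabp4, whose groups overlapped. Their summed level was 4973 to 5866 FPKM in controls and 4691 to 4801 FPKM in knockouts. Epithelial markers summed to at most 1.13 FPKM in any library, and Krt14 was listed at 0 in all 6. Summed levels of 7 thermogenic adipocyte markers were 1489 to 3297 FPKM in controls and 3349 to 5000 FPKM in knockouts. Those of 5 macrophage markers were 408 to 525 and 244 to 332 FPKM. For 8 skeletal muscle markers the sums were 16.2 to 65.4 and 28.5 to 298 FPKM, and for 6 erythroid markers 977 to 1951 and 580 to 1100 FPKM. All 5 macrophage markers and 4 of 7 thermogenic markers differed at an unadjusted p of 0.05 in limma, the first lower and the second higher in knockouts. Of all genes tested, 17.1% were lower and 6.98% higher at that level. The macrophage markers all separated the groups, whereas 4 of 7 thermogenic markers overlapped, Ucp1 and Dio2 among them. The part of these cell types in the carrier values was not tested. The 1 gene of all those tested that passed an adjusted p of 0.05 in limma was a muscle marker, the myoglobin gene Mb, at 1.03 ± 0.23 FPKM for controls against 10.4 ± 3.31 for knockouts (SD, n = 3). The other 7 muscle markers overlapped between the groups. Mb did not follow the muscle actin Acta1 by library. Mb was at 9.11 FPKM beside 8.06 for Acta1 in knockout replicate 1, and at 1.285 beside 25.6 in control replicate 1.

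The 41 carriers together summed to 1112, 1132 and 1099 FPKM for controls against 1382, 1386 and 1244 for knockouts. Every knockout sum lay above every control sum, at means of 1114 ± 16.7 and 1337 ± 80.8 FPKM (SD, n = 3). Expression was concentrated in few members. The 6 most abundant in a library, out of 41, held 72.1 to 75.4% of the sum, and the ADP/ATP carrier Slc25a5 alone held 27.2 to 30.6%. Its share was 29.0 ± 1.64% in controls and 28.2 ± 0.89% in knockouts (SD, n = 3), and the shares overlapped between groups.

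A total of 32 carriers reached a group mean of 1 FPKM and were tested, in a limma fit over 10787 genes on log2(FPKM + 1). This scale understates fold changes of low values. No carrier passed an adjusted p of 0.05 (Benjamini-Hochberg over all genes tested), a threshold that 0.00927% of all genes passed. At an unadjusted p of 0.05, 9 carriers (28.1% of those tested) were higher in knockouts, beside 6.98% of all genes. At the same level 4 carriers (12.5%) were lower, beside 17.1% of all genes. In 12 carriers (37.5%) every knockout value lay above every control value, beside 8.48% of all genes. In 7 carriers (21.9%) every knockout value lay below every control value, beside 22.7% of all genes. Slc25a27, Slc25a14 and Slc25a29 entered the test through their control means alone. Slc25a27 is among the 4 and the 7, and Slc25a14 among the 7. The share of carriers on the higher side was thus above that of all genes, and the share on the lower side was near it. The carriers' median log2 fold change was 0.086, with 19 above 0 and 13 below, and that of all genes was -0.082. The members' median was 0.026 without control replicate 3, 0.044 without knockout replicate 1 and 0.0027 with no filter on low values. The median of all genes in the same settings was -0.051, -0.095 and -0.042. Without knockout replicate 1 the counts at an unadjusted p of 0.05 were 5 higher and 2 lower, beside 4.84% and 12.6% of all genes in that setting. After median-of-ratios scaling of the libraries they were 12 higher and 2 lower, beside 12.2% and 10.4% of all genes. In that setting 4 carriers in place of 7 were lower without overlap, beside 13.85% of all genes in place of 22.7%.

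**Figure D1:**
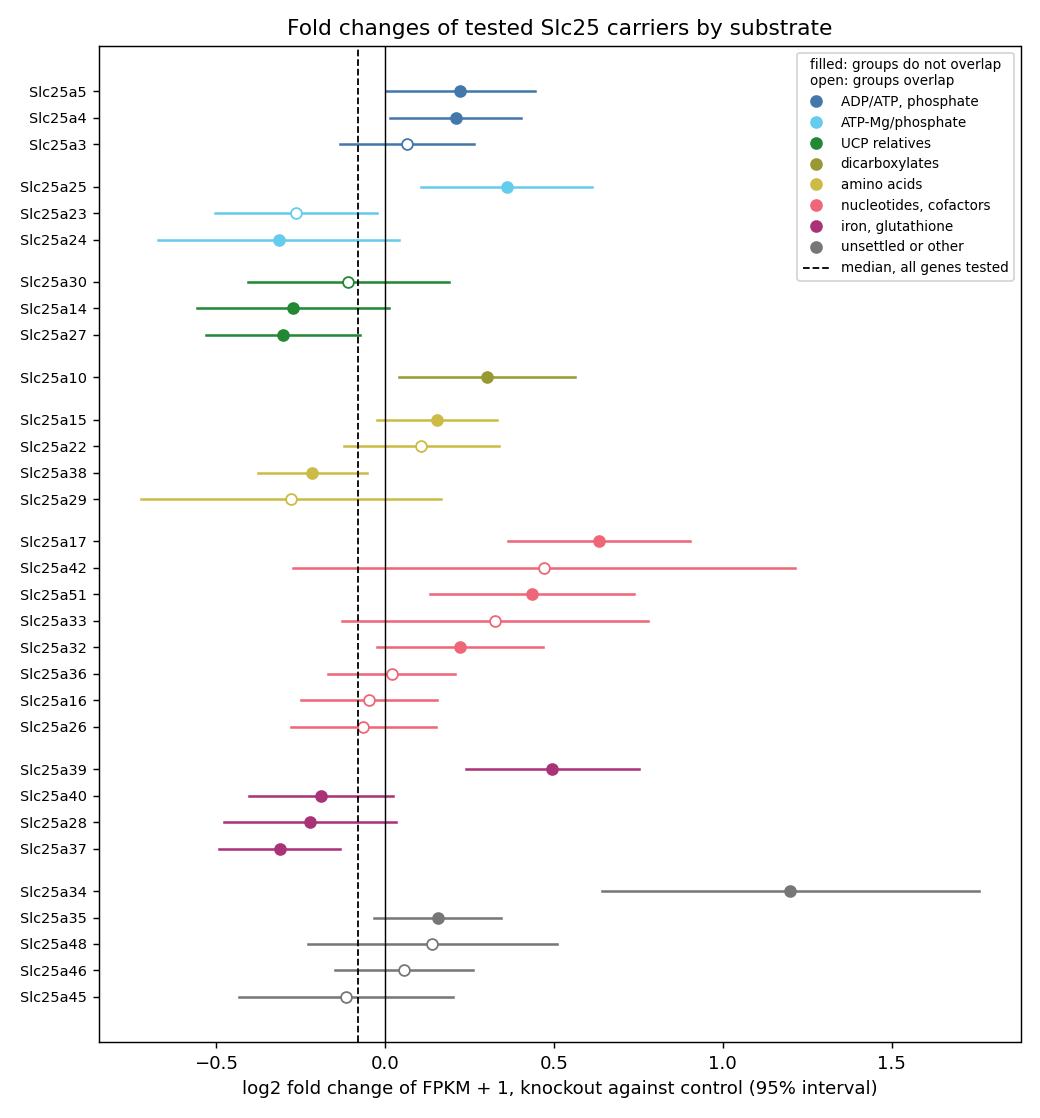
Log2 fold changes of FPKM + 1, knockout against control, with 95% intervals from limma for 31 of the 32 tested carriers, in blocks by substrate. Filled points mark carriers whose groups did not overlap (of those drawn, 11 higher and 7 lower), and the dashed line is the median of all genes tested, -0.082; Slc25a34 stands apart at 1.20.

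Among carriers of adenine nucleotides and phosphate, which supply the matrix with ADP and phosphate for ATP synthesis, both abundant ADP/ATP carriers were higher in every knockout. Slc25a5, the widely expressed ADP/ATP carrier (X chromosome, 36795651 to 36798807, plus strand, mm10), stood at 340, 330 and 300 FPKM for controls against 376, 397 and 359 for knockouts. Its mean was 1.17 times higher, with a log2 fold change of 0.22 (95% interval 0.0028 to 0.44, adjusted p = 0.20 in limma). Slc25a4, the ADP/ATP carrier of heart and skeletal muscle (chromosome 8, 46206797 to 46211284, minus strand), stood at 121, 124 and 120 FPKM for controls against 143, 149 and 130 for knockouts. The 3 control values of Slc25a4 lay within 1.03 times of each other, and the lowest knockout exceeded the highest control. Its log2 fold change was 0.21 (SE 0.083, limma adjusted p = 0.19). The muscle actin Acta1 varied between libraries, at 25.6, 6.33 and 18.1 FPKM for controls against 8.06, 28.9 and 103 for knockouts, and the part of muscle RNA in Slc25a4 was not tested. Slc25a3, the phosphate carrier, had overlapping groups at 92.5 ± 5.06 FPKM for controls against 96.8 ± 5.48 for knockouts (SD, n = 3). The interval of its log2 fold change was -0.13 to 0.26. Slc25a31, an ADP/ATP carrier of the testis, was listed at 0 to 0.058 FPKM and was not tested. A pseudogene copy, Slc25a5-ps, is annotated on chromosome 14, so reads of Slc25a5 could in part be shared.

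**Figure D2:**
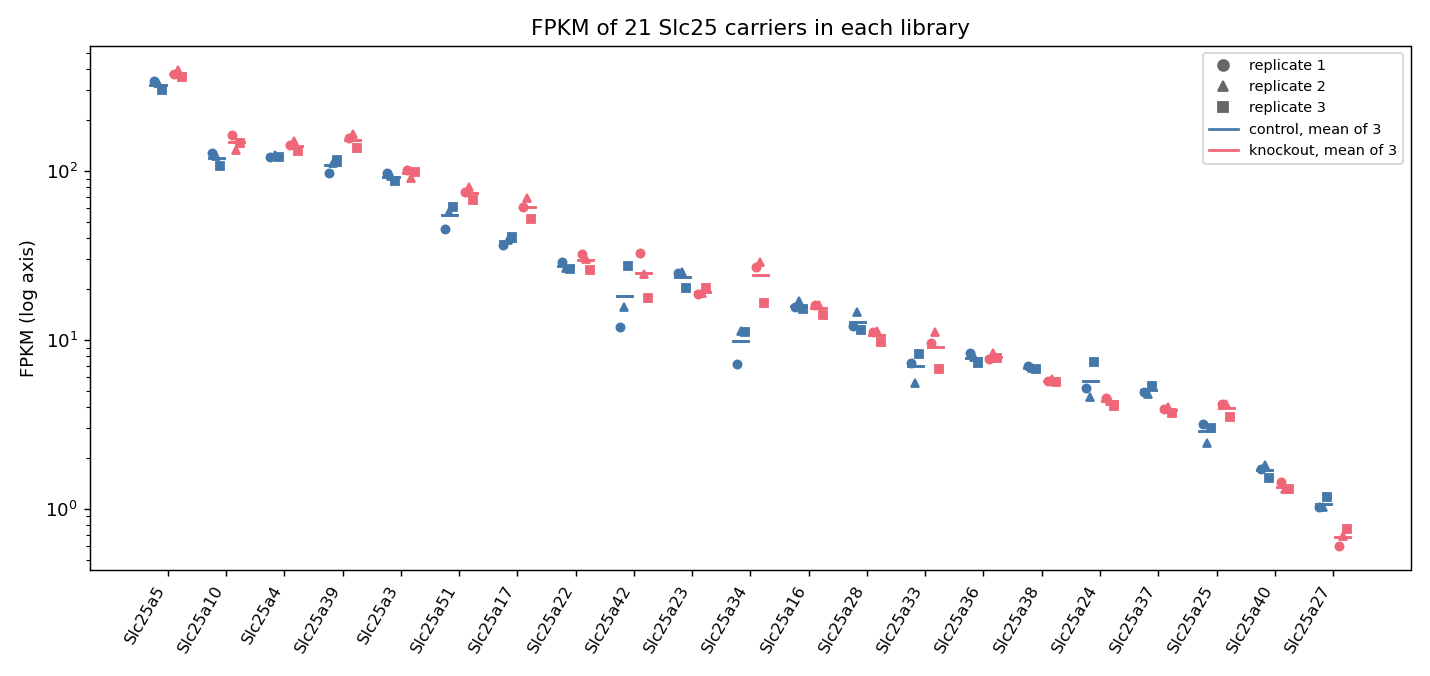
FPKM on a log axis of 21 tested carriers described in full, from the highest to the lowest mean, with 1 point per library (symbols give the replicate number) and bars for the mean of 3. Slc25a5 lies above 300 FPKM in every library, and Slc25a34, Slc25a17 and Slc25a39 show knockouts clearly above controls.

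The calcium-regulated carriers that exchange ATP-Mg for phosphate, and so set the adenine nucleotide pool of the matrix, went in different directions. Slc25a25 (chromosome 2, 32414487 to 32451445, minus strand) stood at 3.18, 2.45 and 2.999 FPKM for controls against 4.20, 4.20 and 3.50 for knockouts, with no overlap. Its mean was 1.38 times higher (log2 fold change 0.36, SE 0.11, adjusted p = 0.12 in limma), on 281 to 488 reads per library. Slc25a24 was at 5.17, 4.59 and 7.41 FPKM for controls against 4.53, 4.37 and 4.06 for knockouts. All knockouts of Slc25a24 were lower, but control replicate 3 stood far above the other controls, and the log2 fold change of -0.32 (adjusted p = 0.25 in limma) was -0.14 without it. Slc25a23, the most abundant of these carriers, was at 24.7, 25.3 and 20.2 FPKM for controls against 18.6, 18.9 and 20.3 for knockouts. Knockout replicate 3 overlapped with control replicate 3, and the log2 fold change was -0.26 (adjusted p = 0.18 in limma). The relatives Slc25a41 (0 to 0.11 FPKM) and Slc25a54 (listed at 0 in all 6 libraries) were not tested.

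Promoter windows of 250 bases before to 50 bases after the start were found in the RefSeq table (GRCm38.p6) for 31 of the 41 carriers and searched on both strands for 3 elements. Cold acts on adipocytes through cyclic AMP, and all 6 samples were cold-exposed. The cyclic AMP response element, TGACGTCA, is shown because it alone of the 3 lay in tested carriers. It lay in 2 carriers, of which Slc25a25 was higher in knockouts without overlap and Slc25a36 was not. Of the 31 carriers with a window 6.45% hold it, beside 2.03% of all 27025 genes with a window. Over all 32851 windows in the table, 1.79% hold it. In Slc25a25 it began at position -150 from 1 of the gene's annotated starts, and in Slc25a36, which carries pyrimidine nucleotides, at position -161. The windows below read 5′ to 3′ on the minus strand, with the element in capitals, and cover chr2:32424183-32424242 and chr9:97111169-97111228.
Slc25a25: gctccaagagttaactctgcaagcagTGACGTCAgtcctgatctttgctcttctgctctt
Slc25a36: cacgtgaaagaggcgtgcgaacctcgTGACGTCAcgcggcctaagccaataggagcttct
The estrogen-related receptor element (TCAAGGTCA or its reverse TGACCTTGA, in 0.466% of all genes with a window) was in 0 of the 31 carriers with a window. The NRF1 core (GCGCATGC or GCATGCGC, in 3.05% of all genes with a window) was in 2 (6.45%), Slc25a31 and Slc25a54, neither of which was tested. A match is a string of letters and does not show binding.

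All 3 tested relatives of the uncoupling proteins had negative log2 fold changes, at low levels, as did 7121 of the 10787 genes tested. Slc25a27, also known as Ucp4 and best known from brain, was at 1.03, 1.03 and 1.17 FPKM for controls against 0.60, 0.69 and 0.76 for knockouts. Its groups did not overlap, and the log2 fold change was -0.30 (SE 0.097, limma adjusted p = 0.14) on 35 to 74 reads per library. Slc25a14, also called Ucp5, had 1.24 ± 0.16 FPKM for controls against 0.86 ± 0.22 for knockouts (SD, n = 3), without overlap, but with overlap after median-of-ratios scaling. Slc25a27 and Slc25a14 entered the test through their control means alone, so for them the filter favoured lower values in knockouts. Slc25a30 had overlapping groups at 2.79 ± 0.57 and 2.499 ± 0.26 FPKM.

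Slc25a10, the dicarboxylate carrier that exchanges malate and succinate for phosphate, was the second most abundant member (chromosome 11, 120491840 to 120499187, plus strand). It stood at 128, 123 and 107 FPKM for controls against 163, 133 and 146 for knockouts. The lowest knockout lay just above the highest control, and the mean was 1.23 times higher (log2 fold change 0.30, SE 0.11, adjusted p = 0.17 in limma). Slc25a21, which carries oxodicarboxylates such as 2-oxoadipate, reached at most 0.27 FPKM and was not tested.

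Amino acid carriers went both ways by small amounts. Slc25a38, which brings glycine into mitochondria for heme synthesis, was tightly grouped at 6.98, 6.80 and 6.69 FPKM for controls against 5.71, 5.89 and 5.60 for knockouts. Its knockouts were all lower, with a log2 fold change of -0.22 (SE 0.068, limma adjusted p = 0.14), and -0.14 after median-of-ratios scaling. Slc25a15, the ornithine carrier of the urea cycle, was at 3.19 ± 0.16 FPKM for controls against 3.66 ± 0.11 for knockouts (SD, n = 3), without overlap (adjusted p = 0.26 in limma). The glutamate carrier Slc25a22 had overlapping values of 28.8, 26.6 and 26.3 FPKM for controls against 32.4, 30.2 and 26.1 for knockouts. Its close relative Slc25a18 was at most 0.28 FPKM, with 1 to 7 reads per library, and was not tested. Slc25a29, a carrier of basic amino acids, had overlapping groups at 1.44 ± 0.60 and 0.99 ± 0.28 FPKM, and control replicate 1 was the highest at 2.12 FPKM. Slc25a29 entered the test through its control mean alone. Slc25a2, a second ornithine carrier, was at most 0.17 FPKM.

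Carriers of nucleotides, cofactors and vitamins had 7 positive log2 fold changes among 9 tested, with a median of 0.32 beside -0.082 over all genes. At an unadjusted p of 0.05, 3 (33.3%) were higher and 0 lower, beside 6.98% and 17.1% of all genes. Slc25a17, which carries coenzyme A and related cofactors across the peroxisomal membrane, had the smallest p of all carriers (chromosome 15, 81318911 to 81360812, minus strand). It stood at 36.4, 39.1 and 40.5 FPKM for controls against 61.1, 69.5 and 52.2 for knockouts. The mean was 1.58 times higher, with a log2 fold change of 0.63 (95% interval 0.36 to 0.90, adjusted p = 0.077 in limma). Slc25a51, which imports NAD into mitochondria, was at 45.6, 57.1 and 61.4 FPKM for controls against 75.0, 79.9 and 66.9 for knockouts. The groups of Slc25a51 did not overlap, and the log2 fold change was 0.44 (SE 0.13, limma adjusted p = 0.12). Slc25a32, linked to folate and FAD, had means of 7.92 and 9.36 FPKM, also without overlap.

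The 5 members of that group described next had overlapping groups. Slc25a42, a carrier of coenzyme A, was the most variable abundant member, at 11.9, 15.6 and 27.2 FPKM for controls against 32.7, 24.6 and 17.6 for knockouts. Its highest control was 2.28 times the lowest, and the interval of its log2 fold change of 0.47 ran from -0.27 to 1.22. Without control replicate 3 its groups separated, with a log2 fold change of 0.79, whereas the value was 0.22 without control replicate 1 and 0.26 without knockout replicate 1. Slc25a16, related to Slc25a42, was level across libraries at 15.5, 16.9 and 15.2 FPKM for controls against 16.0, 16.0 and 14.0 for knockouts. Of the pyrimidine nucleotide carriers, Slc25a33 was at 7.26, 5.55 and 8.29 FPKM for controls against 9.57, 11.1 and 6.72 for knockouts. Slc25a36 was at 8.39, 7.88 and 7.28 FPKM for controls against 7.69, 8.35 and 7.84 for knockouts. Both overlapped, with log2 fold changes of 0.32 (interval -0.13 to 0.78) and 0.019 (interval -0.17 to 0.21). Slc25a26, which imports the methyl donor S-adenosylmethionine, had means of 4.40 and 4.16 FPKM with overlap.

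All 4 carriers tied to iron and glutathione separated the groups, 1 upwards and 3 downwards, beside 8.48% and 22.7% of all genes. Slc25a39, the main mitochondrial importer of glutathione (chromosome 11, 102402985 to 102407946, minus strand), stood at 97.8, 111 and 116 FPKM for controls against 157, 166 and 136 for knockouts. The mean was 1.41 times higher (log2 fold change 0.49, 95% interval 0.24 to 0.75, adjusted p = 0.085 in limma). Its paralogue Slc25a40 was at 1.73, 1.81 and 1.52 FPKM for controls against 1.44, 1.30 and 1.32 for knockouts, all knockouts lower (log2 fold change -0.19, adjusted p = 0.25 in limma). Slc25a37, mitoferrin 1, an iron importer best known from developing red cells (chromosome 14, 69241848 to 69285112, minus strand), was at 4.94, 4.81 and 5.36 FPKM for controls against 3.90, 3.98 and 3.70 for knockouts. Its log2 fold change was -0.31 (95% interval -0.49 to -0.13, adjusted p = 0.095 in limma), and every knockout lay below every control by a gap larger than the range within either group. Slc25a28, mitoferrin 2, the iron importer of other tissues, was at 12.02, 14.6 and 11.5 FPKM for controls against 11.1, 11.3 and 9.69 for knockouts. The groups of Slc25a28 only just separated (log2 fold change -0.22, adjusted p = 0.25 in limma). After median-of-ratios scaling the groups of Slc25a28 and Slc25a40 overlapped and those of Slc25a37 did not. Beside Slc25a37 and Slc25a38, which red cell precursors also express, all 5 tested erythroid markers had negative log2 fold changes (-0.53 to -0.22), with overlapping groups and 0 at an unadjusted p of 0.05. Hbb-bs, a globin gene, was at 1063, 573 and 544 FPKM for controls against 311, 592 and 596 for knockouts. The part of red cell RNA in the values of Slc25a37 and Slc25a38 was not tested.

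The largest difference of any carrier was in Slc25a34, a member whose substrate is not settled (chromosome 4, 141618824 to 141623821, minus strand). It stood at 7.23, 11.2 and 11.1 FPKM for controls against 26.9, 29.0 and 16.6 for knockouts. Every knockout lay above every control, and the mean was 2.45 times higher. The log2 fold change was 1.20 (95% interval 0.64 to 1.76, adjusted p = 0.081 in limma). Its relative Slc25a35 was at 23.4 ± 0.43 FPKM for controls against 26.2 ± 2.04 for knockouts (SD, n = 3), without overlap (log2 fold change 0.16, adjusted p = 0.28 in limma). Slc25a48, Slc25a46 and Slc25a45 overlapped, with means in controls and knockouts of 3.93 and 4.48, 17.5 and 18.2, and 3.58 and 3.18 FPKM. Slc25a47, known from liver, Slc25a53 and Slc25a43 were below the filter, with highest values of 1.09, 0.76 and 0.20 FPKM.

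Carriers higher in knockouts without overlap were mostly abundant ones, and among all genes too this share was larger at the higher level. Of the 12 tested carriers with a mean of at least 20 FPKM over all libraries, 8 (66.7%) were higher without overlap and 0 lower, beside 19.8% and 16.0% of the 1889 genes at that level. Of the 20 tested carriers under 20 FPKM, 4 (20%) were higher without overlap and 7 (35%) lower, beside 6.08% and 24.1% of the 8898 genes at that level. The 7 include Slc25a27 and Slc25a14, which entered the test through their control means alone. Slc25a23 was the exception among the abundant ones, with a negative log2 fold change. Slc25a34, Slc25a25, Slc25a15 and Slc25a32 were the members under 20 FPKM that were higher without overlap. The limit of 20 FPKM was chosen after the values were seen.

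**Figure D3:**
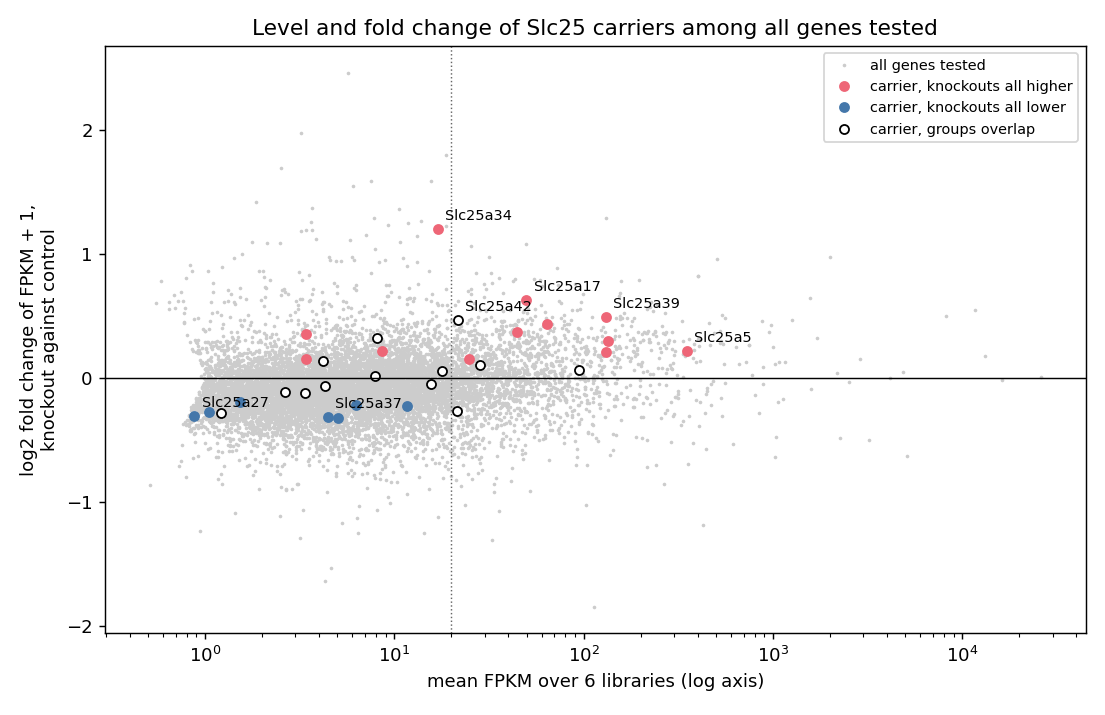
Mean FPKM over 6 libraries (log axis) against the log2 fold change, knockout against control, for all 10787 genes tested (grey) and the 32 tested carriers. Red carriers (12) had all knockouts above all controls and blue ones (7) all below; the dotted line is at 20 FPKM, to the right of which 8 carriers are red and 0 blue.

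Ratios of related carriers within a library do not depend on how libraries are scaled against each other, and 7 were compared. An exact two-sided permutation test of 3 against 3 cannot give a p below 0.10. Slc25a39 exceeded Slc25a40 by 6.00 ± 0.22 on the log2 scale in controls and 6.82 ± 0.16 in knockouts (SD, n = 3), a mean ratio of 64.6 and 113. Its ratio was higher in 3 of 3 knockouts than in any control (difference 0.81, exact permutation p = 0.10, adjusted p = 0.35 over 7 ratios). The log2 ratio of Slc25a25 to Slc25a24 was -0.97 ± 0.31 in controls and -0.13 ± 0.08 in knockouts (SD, n = 3). It was also higher in 3 of 3 knockouts, with a difference of 0.84 (exact permutation p = 0.10, adjusted p = 0.35), so that the pair went from 0.52 to 0.92 in mean linear ratio. In both pairs the first carrier was higher and the second lower without overlap. These ratios therefore had to separate, at the permutation test's smallest p, and are no further support for the differences. Slc25a4 and Slc25a5, the ADP/ATP carriers, kept nearly the same log2 ratio, -1.41 ± 0.09 in controls and -1.42 ± 0.03 in knockouts (SD, n = 3). The remaining 4 ratios overlapped between groups, with differences of -0.14 for Slc25a37 to Slc25a28, 0.10 for Slc25a23 to Slc25a24, -0.55 for Slc25a16 to Slc25a42 and 0.34 for Slc25a33 to Slc25a36.

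**Figure D4:**
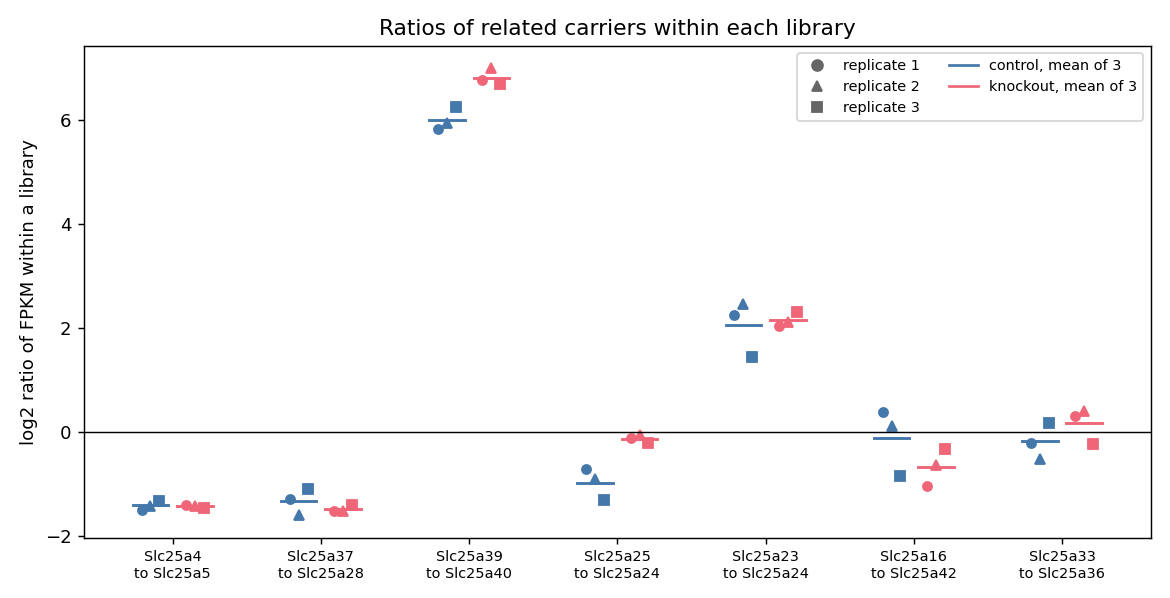
Log2 ratio of FPKM of 7 pairs of related carriers within each library, with symbols by replicate number and bars for the mean of 3. The knockouts lie above all controls for Slc25a39 to Slc25a40 and for Slc25a25 to Slc25a24, and the groups overlap in the other 5.

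Within each group, the same libraries were lowest for some carriers and not for others. Knockout replicate 3 had the lowest knockout value of Slc25a34, Slc25a17, Slc25a39, Slc25a51 and Slc25a42, and control replicate 1 had the lowest control value of the same 5. Of these, Slc25a42 had overlapping groups. The lowest control value of Slc25a5, Slc25a10, Slc25a4 and Slc25a38 was instead in control replicate 3. That of Slc25a37 and Slc25a25 was in control replicate 2. Among knockouts, replicate 3 was also lowest for Slc25a5, Slc25a4, Slc25a38, Slc25a37 and Slc25a25, and replicate 2 was lowest for Slc25a10. Ucp1, the marker of thermogenic adipocytes, was lowest within its groups in control replicate 1 at 800 FPKM and in knockout replicate 3 at 1875 FPKM. Over all libraries Ucp1 was at 800, 1333 and 2007 FPKM for controls against 2898, 3009 and 1875 for knockouts, with overlap. The part of thermogenic adipocyte content in the carrier values was not tested. Without control replicate 1 the log2 fold change of Slc25a34 remained above 0 at an unadjusted p under 0.05, as it did in each of 12 alternatives. Slc25a17, Slc25a39, Slc25a51 and Slc25a37 also stayed on the same side at that level in all 12, and Slc25a25 in all 11 in which it was tested. Slc25a5 did so in 5 of 12, Slc25a4 in 6 of 12, and Slc25a10 in 9 of 12.

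**Figure D5:**
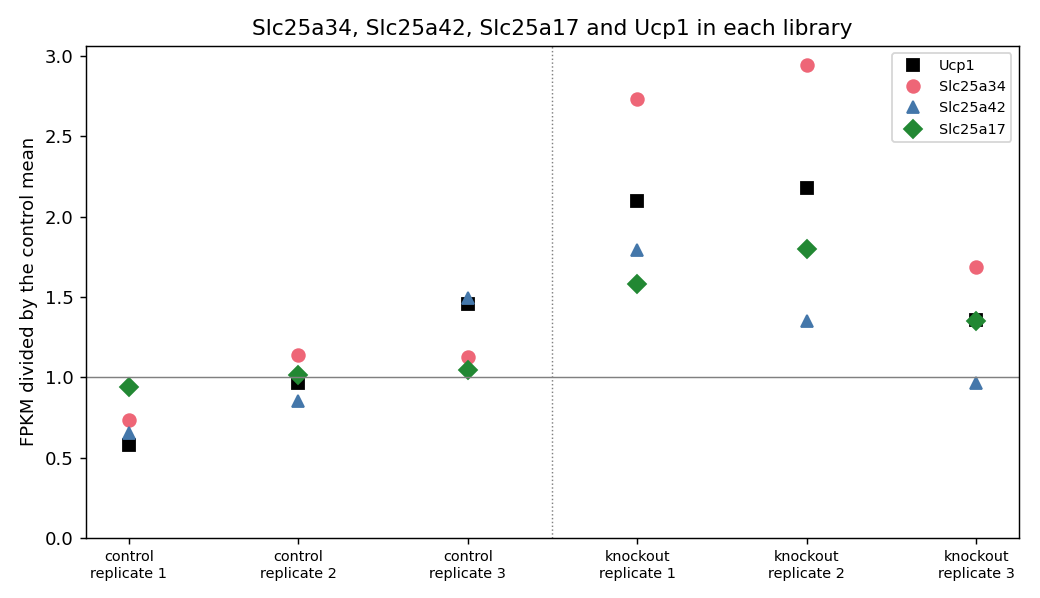
FPKM of Slc25a34, Slc25a42, Slc25a17 and Ucp1 in each library, divided by the mean of the 3 controls. Slc25a34 and Slc25a17 are above all controls in every knockout, whereas Slc25a42 and Ucp1 in knockout replicate 3 lie below control replicate 3.

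Outside the rule, other genes of the same membrane were counted from lists. Of 11 family genes listed under other symbols or left out by the rule (the uncoupling proteins Ucp1, Ucp2 and Ucp3, Mtch1, Mtch2 and the 6 excluded carriers), 10 were tested. At an unadjusted p of 0.05, 4 (40%) were higher and 0 lower, with a median log2 fold change of 0.24. Of 18 inner membrane transporters of other families, all were tested, 7 (38.9%) were higher and 3 (16.7%) lower, and the median was 0.14. Over all genes these shares were 6.98% and 17.1%, and the median was -0.082. None of these passed an adjusted p of 0.05 in limma. The mitochondrial pyruvate carrier subunits Mpc1 and Mpc2 had 1.30 and 1.404 times higher means in knockouts, both without overlap. The sideroflexin Sfxn2 had means of 1.62 FPKM in controls and 0.67 in knockouts, a ratio of 0.41, on 43 to 181 reads per library. Sfxn2 is among the 3 lower and entered the test through its control mean alone, so the filter favoured lower values in knockouts.

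Several carriers overlap genes on the opposite strand, and whether the counting used strand is not known from the labels. Those of at least 500 bases in members named above were Slc25a37 (with Gm27222, Gm27223 and Gm31748), Slc25a23 (Gm17168 and Crb3), Slc25a36 (Gm16185), Slc25a35 (Rangrf), Slc25a33 (Gm13068), Slc25a25 (Naif1), Slc25a10 (Gm11788), Slc25a53 (Zcchc18) and Slc25a2. On the same strand Slc25a37 overlaps Gm20236 and Slc25a16 overlaps Gm16128. Reads of partners on the opposite strand could not be told apart from those of the carrier if strand was not used.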

How the data were processed

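Total RNA of 6 samples went through a strand-specific mRNA library kit and Illumina HiSeq sequencing, per the labels' protocols. Tools named in the submitters' processing notes are cutadapt, HISAT2 and HTSeq, with the build mm10; their versions, the annotation and the settings: not given in the sources used here. The deposited values are FPKM, 1 column per library, made by the authors. FPKM times GENCODE M21 exon length and 1 factor per library gave reads that were whole (tolerance 0.05) in 98.0 to 98.1% of values below 50 reads; 134 genes with other low values were left out of recovered reads only. Of 21936 rows, 36 that repeat a symbol were dropped for the higher row. limma (version 3.58.1, R 4.3.3) with a mean-variance trend was fitted to log2(FPKM + 1) of all 6 libraries, genotype the only term, over genes that reached a group mean of 1 FPKM, with Benjamini-Hochberg adjustment and a threshold of 0.05. The fit was tested on simulated data. Fully described were the 12 carriers with the smallest p, the 6 most abundant and those in a ratio; others are given by group, and 1 carrier, kept in all counts and sums, is not reported here. Members were picked by symbol, and the family, lists and tests were chosen with earlier results of these data known. Protein sequences were not used here. Alternatives were a pseudocount of 0.1, no filter, a filter at 5 FPKM, median-of-ratios scaling, the replicate number as a block, voom on recovered reads and leaving out each library. Every pair of libraries differed by more than counting noise (chi-square of 9.28 or more for each degree of freedom).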

Additional observations from a re-analysis of the deposited data

How the results depend on the processing

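Under all 12 alternatives 0 carriers passed an adjusted p of 0.05, in limma or in voom on recovered reads. In voom 9 were higher and 5 lower by unadjusted p, beside 6.61% and 17.5% of all genes. Of 261 recomputed log2 fold changes of 22 carriers, 4 changed sign, all of Slc25a16 or Slc25a36, whose values lie near 0. Slc25a16 was at 0.032 under median-of-ratios scaling and between -0.080 and 0.013 when 1 library was left out, and Slc25a36 between -0.028 and 0.062. Carriers higher at an unadjusted p of 0.05 numbered 5 to 8 and lower ones 2 to 6 when 1 library was left out, beside 3.73 to 8.33% and 10.2 to 19.0% of all genes. Under median-of-ratios scaling 2 were lower at that level and 4 lower without overlap, beside 10.4% and 13.85% of all genes. With a filter at 5 FPKM, which left 22 carriers, 4 were lower without overlap, beside 21.7% of all genes. The scaling divided controls by 1.026, 0.9941 and 1.07 and knockouts by 0.9905, 0.9695 and 0.9511. Knockout values thus rose against those of controls. Why the factors differed was not tested. The log2 ratio of Slc25a4 to Slc25a5 differed between groups by -0.055 to 0.031, with its sign changed without control replicate 3 or knockout replicate 3, and that of Slc25a23 to Slc25a24 by -0.20 to 0.30 when 1 library was left out, negative only without control replicate 3 for the latter. With the replicate block, 0 carriers passed the adjusted threshold. By unadjusted p 8 were higher and 3 lower, beside 5.92% and 14.6% of all genes. Same-numbered libraries did not deviate together (correlations 0.065, 0.027 and -0.25), so the numbers were not taken as pairs. Slc25a14, Slc25a27 and Slc25a29, with at most 78 reads in a library, are limited by depth.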
